A study of Mus musculus with 24 samples.

Results

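Cortical small RNA of wild-type (WT) mice was compared between 9 and 6 months of age. The comparison rests on 6 of the 24 libraries of the series, chosen by the genotype and age in their labels: 3 from WT mice of 9 months and 3 from WT mice of 6 months. All 1927 miRNA names of the deposited count table were considered, and 433 had enough counts to be tested. The series also holds APP/PS1 mice, which carry transgenes for a mutant human amyloid precursor protein and a mutant presenilin 1 and model amyloid deposition. Both genotypes were sampled at 1, 3, 6 and 9 months, with 3 mice in each of the 8 groups. All mice were of strain C57BL/6, were killed by cervical dislocation and had their brains flash frozen without any treatment being labelled. Each age group held 2 female mice and 1 male mouse, but the sex of a given library is not labelled, and sex was therefore not modelled. The series title names the cerebral cortex while the tissue label reads brain.

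miRNAs are short RNAs that are cut from hairpin precursors and guide Argonaute proteins to messenger RNAs. Pairing runs mainly through the seed, bases 2 to 8 of the mature strand, so miRNAs with the same seed are grouped as a family. In the cortex, neurons supply much of the miRNA pool, with miR-124 and miR-9 among the best known neuronal ones. miR-451a is made in red cell precursors, miR-142 and miR-223 in white blood cells and, for miR-142, microglia. A large imprinted cluster between Dlk1 and Dio3 is expressed from the maternal chromosome, mainly in brain.

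The mature sequences below belong to the miRNAs that differed between the ages and have a RefSeq entry (GRCm38.p6), with 3 more that are needed to read them. Capitals mark the seed, bases 2 to 8. The first 5 belong to miRNAs lower at 9 months, other than the red cell miRNA printed further on:
miR-690: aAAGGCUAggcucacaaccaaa
miR-3470b: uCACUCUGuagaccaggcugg
miR-1195: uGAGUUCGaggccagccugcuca
miR-3471: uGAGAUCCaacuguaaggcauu
miR-6481: cACUGAAAaugcuuagaug
miR-3473a did not pass the test and has its own locus (chrX:162874920-162874937, minus strand, in an intron of Syap1), but most of its letters also occur in the precursor of miR-690, as shown further on:
miR-3473a: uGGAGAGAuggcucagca
The red cell miRNA that was lower at 9 months is
miR-451a: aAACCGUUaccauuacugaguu
The miRNAs higher at 9 months, with the 2 seed relatives of miR-100-5p, are
miR-100-5p: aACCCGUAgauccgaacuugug
miR-99a-5p: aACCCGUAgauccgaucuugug
miR-99b-5p: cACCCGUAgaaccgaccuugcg
miR-3072-3p: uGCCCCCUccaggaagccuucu
miR-433-5p: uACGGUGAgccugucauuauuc
miR-1969: aAGAUGGAgacuuuaacaugggu
miR-3470a, miR-1957a, miR-376c-3p and a predicted miRNA whose counts follow those of miR-690 also differed and are given by name only. Apart from the shared seed ACCCGUA of miR-100-5p, miR-99a-5p and miR-99b-5p, no seed of the 10 miRNAs that differed and have a sequence was found again among the 358 tested names with one.

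Depth and tissue were checked first. The WT 9-month libraries held between 4036855 and 6604335 counts and the WT 6-month libraries between 2230030 and 4266691, so the younger group was on the whole less deeply sequenced. Values are given as CPM, counts scaled to a common library size after adjustment by the trimmed mean of M values (TMM), and as log2 fold changes of 9 over 6 months with their standard errors. p-values are from edgeR's quasi-likelihood test, adjusted by Benjamini and Hochberg over all 433 names and called at 0.05. They rest on a spread between mice that was estimated from all 24 libraries in 8 groups, not from the 6 compared alone. The neuronal miR-124-3p was the most abundant name, at 184801, 178650 and 165346 CPM in WT 9-month libraries and 163868, 191621 and 167111 CPM in WT 6-month libraries. The summed neuron-enriched list, 18 tested miRNAs, lay between 306655 and 327144 CPM at 9 months and between 299971 and 326706 CPM at 6 months, which overlap. Of the oligodendrocyte list only miR-338-3p had enough counts to be tested, and miR-219a-5p, a defining miRNA of myelinating oligodendrocytes, had 1, 2 and 0 counts in WT 9-month libraries and 0 counts in all 3 WT 6-month libraries. The labels name no preparation or sequencing batch, so a batch that coincides with an age group cannot be told apart from age.

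Of 433 tested miRNAs 14 (3.23%) differed between 9 and 6 months, 5 higher (1.15%) and 9 lower (2.08%) at 9 months, while 50 had an unadjusted p under 0.05 (11.5%). The lower ones were miR-690, its predicted companion, miR-3470a, miR-3470b, miR-1957a, miR-1195, miR-3471, miR-6481 and miR-451a. The higher ones were miR-100-5p, miR-3072-3p, miR-376c-3p, miR-433-5p and miR-1969. The 3 libraries of one age lay wholly above or below those of the other for 69 names (15.9%), and these included all 14. The median log2 fold change over all tested names was 0.02, and 233 (53.8%) were above 0.

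**Figure D1:**
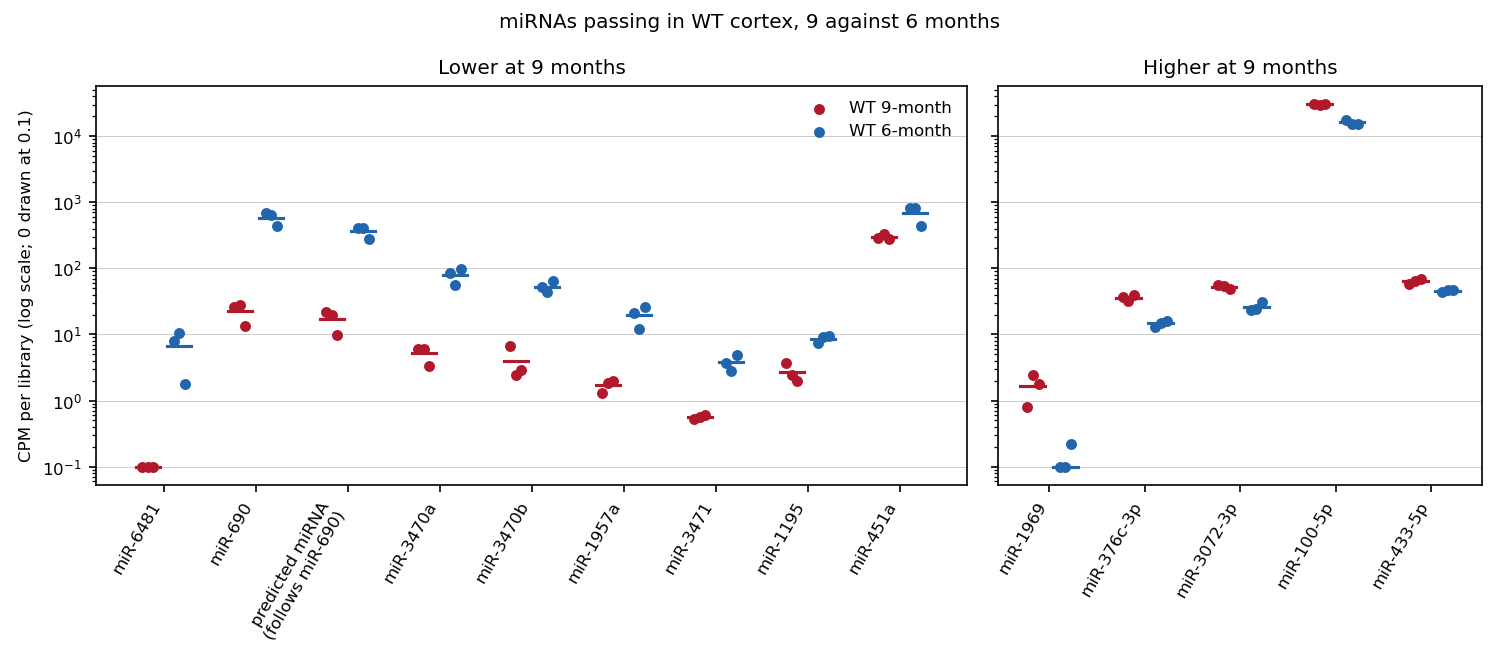
CPM (log scale) of the 14 miRNAs that passed the test in each of the 3 WT 9-month and the 3 WT 6-month libraries; points are libraries, horizontal bars group means, and values or means under 0.1 CPM are drawn at 0.1. In no panel do the points of one age reach those of the other; miR-690 lies between 13.4 and 28.2 CPM at 9 months and above 442 CPM at 6 months.

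**Figure D2:**
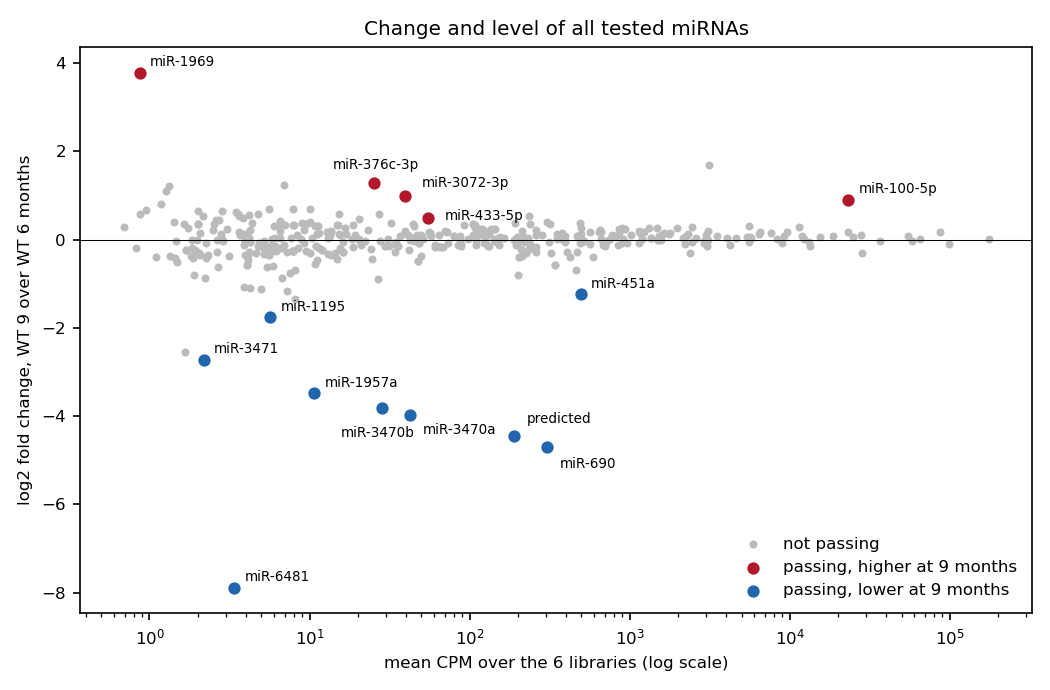
log2 fold change of WT 9-month over WT 6-month libraries against mean CPM over the 6 libraries (log scale) for the 433 tested miRNAs, each point a miRNA. Most points lie near 0, with a median of 0.02, while miR-690, its predicted companion, miR-3470a, miR-3470b and miR-1957a lie below -3; the value of miR-6481 rests on 9-month libraries at 0 counts and depends on the fit.

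The largest differences were falls. miR-690, which lies in an intron of Fgf12 (chr16:28599940-28599961, minus strand, the strand of the gene), had 26.4, 28.2 and 13.4 CPM in WT 9-month libraries, against 678, 638 and 442 CPM in WT 6-month libraries. Every 6-month value was more than 10 times every 9-month value. The log2 fold change was -4.70 (SE 0.45, edgeR adjusted p = 2.03e-07). The predicted miRNA had 21.6, 19.6 and 9.78 CPM at 9 months and 406, 409 and 276 CPM at 6 months (log2 fold change -4.44, SE 0.43, edgeR adjusted p = 2.03e-07). The ratio of its counts to the counts of miR-690 lay between 0.583 and 0.876 over the 24 libraries, so both names may not be independent measurements.

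The other large falls were those of miR-3470a, miR-3470b and miR-1957a. miR-3470a had 6.06, 6.09 and 3.31 CPM at 9 months and 86.3, 56.3 and 98.1 CPM at 6 months (log2 fold change -3.98, SE 0.36, edgeR adjusted p = 1.86e-07), the smallest p of the comparison. miR-3470b, placed at chr16:44013885-44013905 on the plus strand and opposite to an intron of Gramd1c, had 6.59, 2.40 and 2.86 CPM at 9 months and 51.9, 43.2 and 63.5 CPM at 6 months (log2 fold change -3.80, SE 0.44, edgeR adjusted p = 1.92e-06). miR-1957a had 1.32, 1.84 and 1.96 CPM at 9 months and 21.3, 11.9 and 26.0 CPM at 6 months (log2 fold change -3.48, SE 0.45, edgeR adjusted p = 9.76e-06). For all 3 the WT 6-month library with the lowest level was replicate 2, and it still lay far above every 9-month library.

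Of the other passing miRNAs of low level, miR-1195, miR-3471 and miR-6481 fell as well. miR-1195 (chr17:70860558-70860580, minus strand, opposite to an intron of the pseudogene Gm9320) had 3.69, 2.40 and 1.96 CPM at 9 months and 7.42, 9.07 and 9.54 CPM at 6 months (log2 fold change -1.75, SE 0.35, edgeR adjusted p = 0.00332). miR-3471 (chr4:10845585-10845606, minus strand, in no annotated gene other than its own) had 0.527, 0.553 and 0.602 CPM at 9 months and 3.71, 2.81 and 4.88 CPM at 6 months (log2 fold change -2.72, SE 0.58, edgeR adjusted p = 0.00578). The call of miR-3471 was lost without WT 6-month replicate 3 (log2 fold change -2.42, edgeR adjusted p = 0.0598). miR-6481 (chr3:99199367-99199385, minus strand, opposite to an intron of Wars2) had 0 counts in all 3 WT 9-month libraries, and 17, 34 and 8 counts (7.88, 10.6 and 1.78 CPM) in the WT 6-month libraries. Its 6-month level was 31.6 times a floor of 3 counts over the 9-month group, which is not a lower limit of the fall. The ratio of the 9-month to the 6-month level was 0, with a 95% interval of 0 to 0.0401 that covers counting error only (edgeR adjusted p = 0.00489). With only the 6 libraries compared it had too few counts to be tested, so its call depends on a filter over all 24 libraries.

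The ages of 1 and 3 months place these falls. miR-690 was between 18.8 and 27.2 CPM in the 6 WT libraries of 1 and 3 months, a range that overlaps that of the 9-month libraries. Over all tested names the 3 WT 6-month libraries lay above the 9 other WT libraries for 13 (3%) and below them for 19 (4.39%). The WT 9-month libraries lay above the 9 others for 3 names (0.693%), miR-100-5p, miR-101b-3p and miR-488-5p, and below them for 2 (0.462%), miR-181a-5p and miR-194-5p. Of the 14 miRNAs that passed, all 5 higher ones and 8 of 9 lower ones, miR-451a being the exception, had WT 6-month libraries outside all 9 other WT libraries. The WT 9-month libraries overlapped those of 1 and 3 months for all 9 lower miRNAs and for 4 of the 5 higher ones, with miR-100-5p as the exception. The 6-month libraries stood apart within WT for 13 of the 14, and for miR-100-5p the 9-month libraries did so as well. These names were chosen by their difference between 9 and 6 months, so lying outside the 9-month libraries follows from the choice. Only the 6 libraries of 1 and 3 months add to it, and extreme 6-month values were favoured by the same choice. The shares over all tested names are therefore no measure for these 14.

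**Figure D3:**
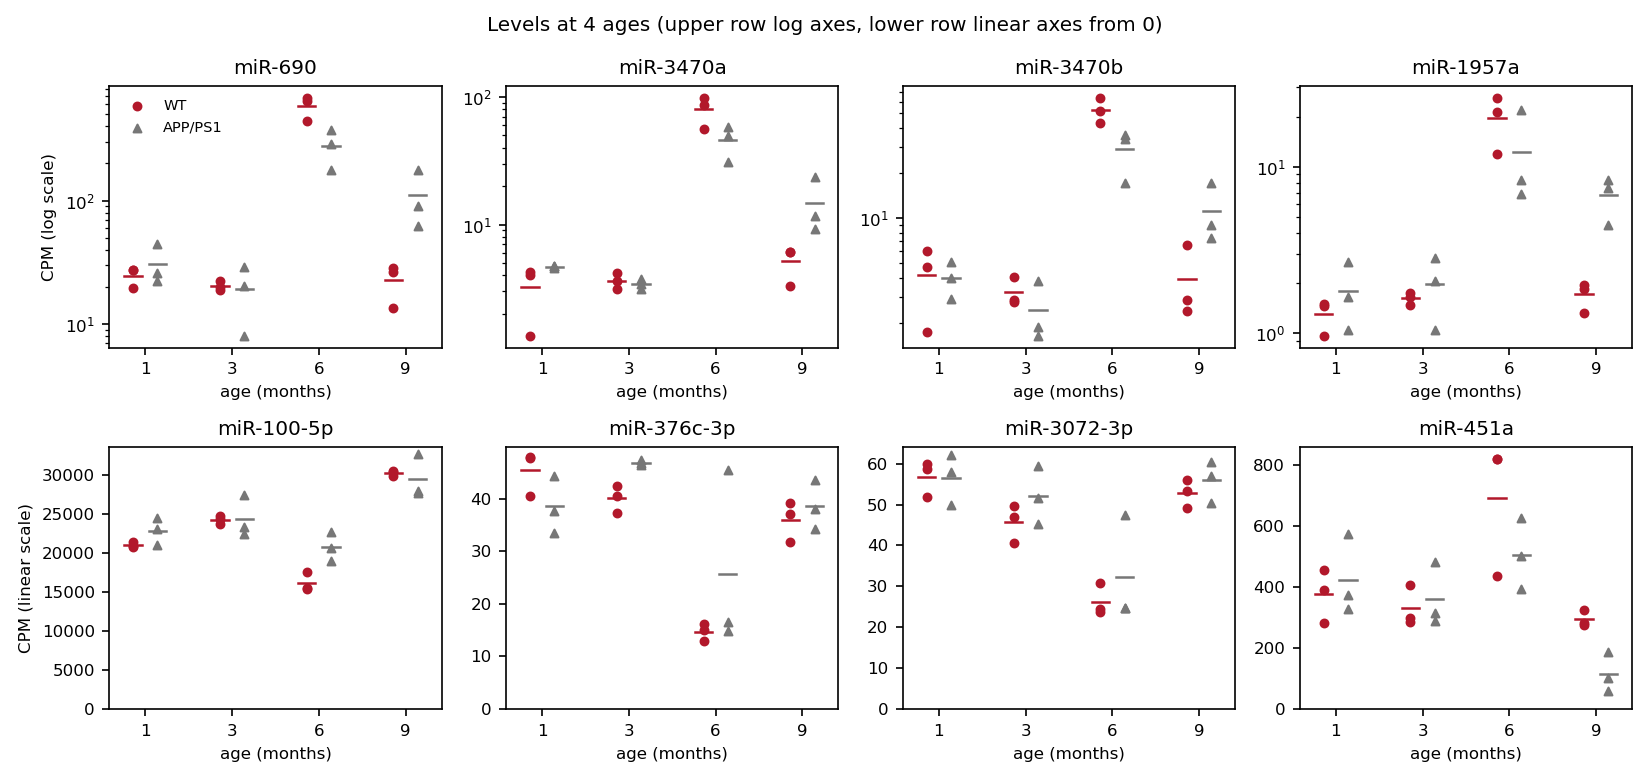
CPM by age in months of 8 miRNAs that passed in WT (upper row on log axes, lower row on linear axes from 0), with 1 point per library, circles for WT, triangles for APP/PS1 and short bars at the group means. miR-690 in WT is between 18.8 and 27.2 CPM at 1 and 3 months, between 442 and 678 CPM at 6 months and between 13.4 and 28.2 CPM at 9 months, while miR-100-5p in WT is lowest at 6 months and highest at 9 months.

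A group of 8 names was picked, with no test, by a log2 fold change above 2 between APP/PS1 libraries of 6 and 3 months, which lie outside the WT comparison. They are miR-690, the predicted miRNA, miR-1957a, miR-3470a, miR-3470b, miR-3471, miR-3473a and miR-6481. Of these 8, 7 passed in WT between 9 and 6 months, where over all tested names 14 of 433 (3.23%) passed. The 7 count miR-690 and the predicted miRNA as 2 names. Their summed level in WT was between 40.4 and 59.2 CPM at 1 month, between 41.9 and 47.9 CPM at 3 months, between 917 and 1256 CPM at 6 months and between 32.4 and 62.5 CPM at 9 months. In APP/PS1 the sum was between 53.4 and 91.8 CPM at 1 month, between 26.0 and 58.7 CPM at 3 months, between 358 and 718 CPM at 6 months and between 136 and 348 CPM at 9 months. In WT the 6-month libraries were the highest, without overlap with any other age. In APP/PS1 the order of 6 and 3 months was fixed by the choice of names. At 6 months the WT sums lay above the APP/PS1 ones. Most of each 6-month sum, in both genotypes, came from miR-690 and the predicted miRNA, which may not be independent measurements. The sums therefore mainly follow both of these names and say little of the rarer ones.

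Some of these names carry letters that recur in other transcripts. Of the 358 tested names with a RefSeq mature sequence, 258 (72.1%) matched the transcripts of none of 53248 annotated genes other than miRNA genes on either strand, and 4 matched more than 4 genes. miR-3470b matched exactly in transcripts of 1016 genes, miR-3473a in 281, miR-3471 in 61 and miR-574-5p in 7. miR-690 followed with 4. miR-3473a, at 0, 0.922 and 0.451 CPM at 9 months and 1.39, 3.44 and 3.77 CPM at 6 months, did not pass (log2 fold change -2.54, SE 0.81, edgeR adjusted p = 0.105). Its locus is on another chromosome, but its first 17 of 18 bases also occur in the precursor of miR-690, of 109 bases (chr16:28599935-28600043, minus strand), printed here with those 17 bases in capitals:
Mir690: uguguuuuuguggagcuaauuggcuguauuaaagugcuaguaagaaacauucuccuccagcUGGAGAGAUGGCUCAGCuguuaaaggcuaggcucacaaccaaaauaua
The capitals run from position 62 to 78 and mature miR-690 from position 83 to 104. How reads that match several places were counted is not given in the sources used here, and its part in these levels was not tested.

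Among the miRNAs that were higher at 9 months, miR-100-5p was the only abundant one. It had 30552, 29834 and 30435 CPM in WT 9-month libraries, against 17623, 15493 and 15367 CPM in WT 6-month libraries. The log2 fold change was 0.91 (SE 0.09, edgeR adjusted p = 3.23e-07), and the libraries within each age lay close together. In WT it was between 20763 and 21357 CPM at 1 month and between 23661 and 24803 CPM at 3 months, so that 6 months was the lowest and 9 months the highest age, with no overlap between any pair of ages. miR-100-5p (chr9:41531437-41531458, plus strand, in an intron of the long noncoding RNA 3110039I08Rik) shares a cluster with let-7 and miR-125 family members and is known in other cells as a regulator of the mTOR pathway.

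Its seed relatives did not move with it past the test. miR-99a-5p, which lies at chr16:77598940-77598961 in an intron of Mir99ahg, differs from miR-100-5p at 1 of 22 bases (A16U, miR-100-5p first, counted from the 5′ end). It had 101425, 86977 and 85836 CPM at 9 months and 81798, 89626 and 72932 CPM at 6 months, which overlap (log2 fold change 0.17, SE 0.11, edgeR adjusted p = 0.701). miR-99b-5p, in an intron of Spaca6 (chr17:17830194-17830215), differs at 4 bases (A1C, U11A, A16C and U21C) and had a log2 fold change of 0.18 (SE 0.10, edgeR adjusted p = 0.523). Reads of miR-100-5p and miR-99a-5p are told apart by that 1 base, so the split of reads between these near-identical names is uncertain. The other arm of its precursor, miR-100-3p, was near 1 or 2 CPM and did not pass (log2 fold change 1.22, SE 0.63, edgeR adjusted p = 0.474).

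The Dlk1-Dio3 cluster gave 3 of the 5 higher miRNAs. miR-3072-3p (chr12:109747928-109747949, plus strand, in an exon of the noncoding RNA Mirg) had 56.1, 53.3 and 49.1 CPM at 9 months and 23.7, 24.4 and 30.8 CPM at 6 months (log2 fold change 0.99, SE 0.20, edgeR adjusted p = 0.00332). miR-376c-3p had 37.2, 31.7 and 39.1 CPM at 9 months and 12.99, 15.01 and 16.2 CPM at 6 months (log2 fold change 1.27, SE 0.28, edgeR adjusted p = 0.00692). miR-433-5p (chr12:109591729-109591750, plus strand, opposite to the exon of the imprinted gene Rtl1) had 58.5, 64.2 and 69.2 CPM at 9 months and 43.6, 46.6 and 46.4 CPM at 6 months (log2 fold change 0.49, SE 0.13, edgeR adjusted p = 0.0454). With each of the 6 libraries left out in turn, miR-433-5p passed once, without WT 9-month replicate 1, and its adjusted p rose to 0.147 without WT 9-month replicate 3.

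Of the 91 tested members of the cluster 3 rose and 0 fell, where over all tested names 5 (1.15%) rose and 9 (2.08%) fell. miR-433-5p is the least stable of the 3. Their median log2 fold change was 0.15, against 0.02 for all tested names, and 67 of 91 (73.6%) were above 0, against 53.8% of all tested names. WT 9-month libraries lay wholly above the WT 6-month ones for 19 members and below them for 3, where over all names it was 33 (7.62%) and 36 (8.31%). The summed level of the cluster was between 73562 and 78834 CPM at 9 months and between 66483 and 69265 CPM at 6 months, with no overlap. All 88 members with a RefSeq sequence lie on chr12:109563710-109747949. Members that came close to the threshold without passing were miR-382-3p (log2 fold change 0.37), miR-409-5p (0.30), miR-369-3p (0.27) and miR-434-5p (0.28), with adjusted p between 0.105 and 0.109. The opposite arms miR-376c-5p (log2 fold change 0.12) and miR-433-3p (0.16) did not pass either.

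miR-1969 (chr8:70925541-70925563, plus strand, in no annotated gene other than its own) was near the limit of detection. It had 3, 13 and 12 counts (0.79, 2.40 and 1.81 CPM) in WT 9-month libraries, against 0, 0 and 1 count in WT 6-month libraries. Scaled for depth the level at 9 months was 17.4 times that at 6 months, with a 95% interval of 2.88 to 712 that covers counting error only (edgeR adjusted p = 0.00877). Without WT 6-month replicate 2 its edgeR adjusted p was 0.0579. With only the 6 libraries compared it had too few counts to be tested, so its call depends on a filter over all 24 libraries.

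Of the red cell miRNAs only miR-451a passed, and it fell. In bulk tissue, fewer cells of a type and less of its RNA per cell cannot be told apart. miR-451a (chr11:78073186-78073207, plus strand), which in red cell precursors is cut by Argonaute 2 instead of Dicer, had 283, 326 and 274 CPM in WT 9-month libraries, against 820, 820 and 438 CPM in WT 6-month libraries. Its log2 fold change was -1.23 (SE 0.33, edgeR adjusted p = 0.0422), and the lowest 6-month library was closer to the 9-month ones than to its own group. With each of the 6 libraries left out in turn it passed once, without WT 6-month replicate 3, and the adjusted p was highest, 0.173, without WT 9-month replicate 1. The 6 WT libraries of 1 and 3 months lay between 282 and 457 CPM.

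Of the 7 tested names of the erythrocyte list 1 fell and 0 rose, where over all tested names 2.08% fell and 1.15% rose. All 7 had log2 fold changes below 0, with a median of -0.57, but they hold 2 pairs with identical counts and so 5 distinct measurements. The summed level of the list was between 1048 and 1312 CPM at 9 months and between 1542 and 2520 CPM at 6 months. miR-144-5p, from the same precursor cluster as miR-451a, had 17.7, 21.2 and 17.5 CPM at 9 months and 43.6, 35.0 and 26.6 CPM at 6 months (log2 fold change -0.89, SE 0.30, edgeR adjusted p = 0.134). miR-486a-5p, which has the same counts as miR-486b-5p, had 287, 291 and 243 CPM at 9 months and 495, 379 and 341 CPM at 6 months (log2 fold change -0.57, SE 0.18, edgeR adjusted p = 0.107). For neither name did the ages overlap. The 9-month libraries lay wholly below the 6-month ones for 4 of the 7 names, where over all tested names it was 36 (8.31%). The 4 count miR-486a-5p and miR-486b-5p as 2 names although their counts are identical. miR-144-3p, the other arm of the miR-144-5p precursor, had 408, 381 and 266 CPM at 9 months and 660, 658 and 391 CPM at 6 months, which overlap. The part of red cell RNA in the other results was not tested.

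**Figure D4:**
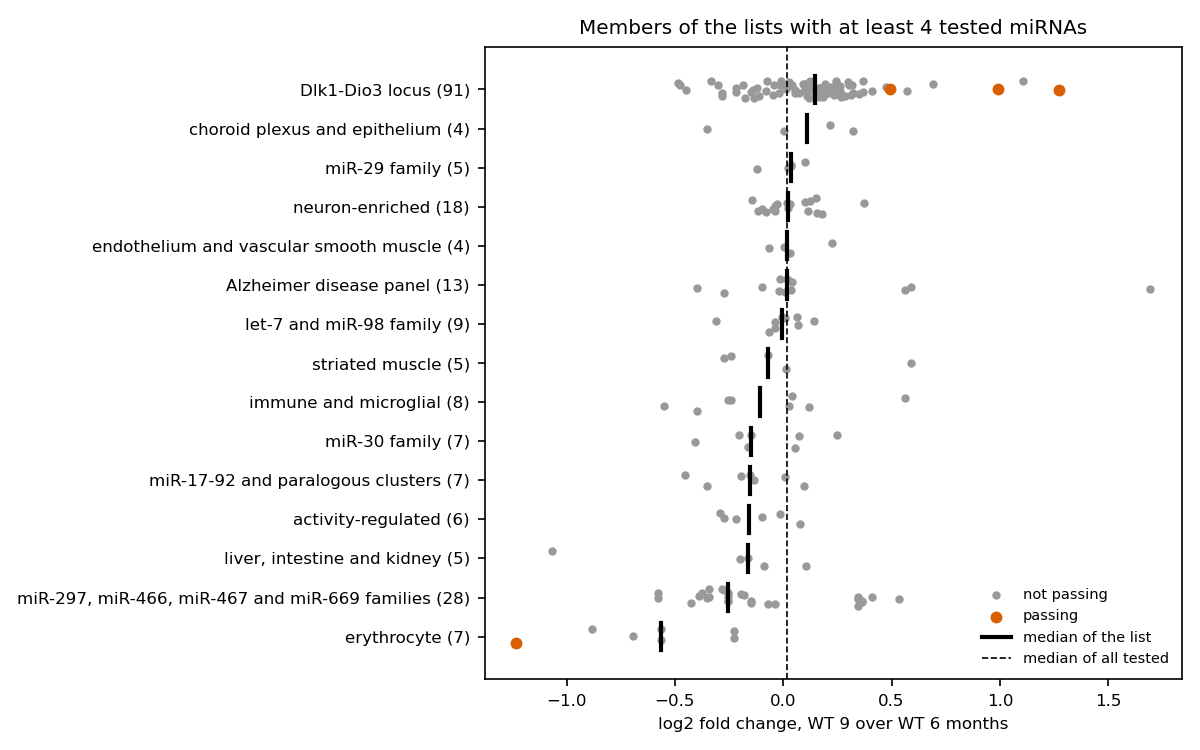
log2 fold change of WT 9-month over WT 6-month libraries for the members of each list with at least 4 tested miRNAs, with 1 point per member, passing members in colour, a bar at the list's median and a dashed line at the median of all tested names. The erythrocyte list lies wholly below 0 with a median of -0.57, and the Dlk1-Dio3 list has a median of 0.15, against 0.02 for all tested names.

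No member of the other lists passed. In the neuron-enriched list the median log2 fold change was 0.02 over 18 miRNAs, with miR-9-5p, which acts in neural progenitors and neurons, at 0.02. The 6 activity-regulated miRNAs had a median of -0.16. The immune and microglial list had 8 tested members with a median of -0.11, and its summed level lay between 6774 and 6893 CPM at 9 months and between 6294 and 7888 CPM at 6 months. Its member miR-142a-5p had 539, 530 and 461 CPM at 9 months and 787, 649 and 583 CPM at 6 months, which do not overlap (log2 fold change -0.40, SE 0.13, edgeR adjusted p = 0.105). miR-155-5p, induced in activated microglia and macrophages, had a log2 fold change of 0.56 and miR-223-3p of -0.26, neither past the test.

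Lists of vessels, choroid plexus and other tissues and the larger miRNA families had medians between -0.26 and 0.11. The medians were 0.02 for 4 endothelial and vascular smooth muscle miRNAs, 0.11 for 4 of choroid plexus and epithelium, -0.07 for 5 of striated muscle and -0.16 for 5 of liver, intestine and kidney. With 1 library left out the choroid plexus median lay between -0.10 (without WT 9-month replicate 2) and 0.50 (without WT 6-month replicate 3). The median of the liver, intestine and kidney list then lay between -0.26 (without WT 6-month replicate 3) and 0.13 (without WT 6-month replicate 1), so neither list has a settled direction. The medians of the endothelial, striated muscle, let-7 and miR-30 lists also changed sign in at least 1 such fit, that of the immune list with only the libraries compared, and those of the neuron-enriched, miR-29 and Alzheimer disease lists with library totals alone. The let-7 and miR-98 family (9 tested, median -0.01), the miR-29 family (5, median 0.04), the miR-30 family (7, median -0.15) and the miR-17-92 clusters (7, median -0.15) had no passing member. The 28 tested names of the miR-297, miR-466, miR-467 and miR-669 families, most of which come from a rodent cluster in an intron of Sfmbt2, had a median of -0.26, with 7 above 0 and none passing.

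A panel of 13 miRNAs taken from the Alzheimer disease literature had a median log2 fold change of 0.02 and no passing member. Its member with the smallest p was miR-342-3p, which is hosted by an intron of Evl. It had 5371, 5429 and 3652 CPM at 9 months and 794, 2888 and 783 CPM at 6 months. The ages did not overlap, but the 6-month libraries were far apart, and the log2 fold change of 1.69 (SE 0.52) had an edgeR adjusted p of 0.0985. Without WT 6-month replicate 2, the highest of the 6-month libraries, the log2 fold change was 2.61 and the edgeR adjusted p 0.00476. This is 1 of the 6 fits that left out a library, and it gives no ground to discount that library. The APP/PS1 6-month libraries were also far apart for this name. The WT libraries of 1 and 3 months lay between 3882 and 4762 CPM, and the opposite arm miR-342-5p had 12.6, 11.3 and 6.02 CPM at 9 months and 0.464, 8.76 and 2.66 CPM at 6 months (log2 fold change 1.25, edgeR adjusted p = 0.189).

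The same ages in APP/PS1 mice come from other animals and share no library with the WT comparison. There 23 of 433 names (5.31%) passed, 13 higher (3%) and 10 lower (2.31%) at 9 months. Leaving out APP/PS1 6-month replicate 3 made this count 14. All 14 miRNAs that passed in WT had a log2 fold change of the same sign in APP/PS1, and 8 passed there in the same direction, which is 57.1% of the 14 in WT and 34.8% of the 23 in APP/PS1. The 8 are miR-100-5p, miR-3072-3p and miR-1969, which rose, and miR-690, miR-3470a, miR-3470b, miR-3471 and miR-451a, which fell. For miR-100-5p the log2 fold change was 0.91 in WT and 0.50 (SE 0.09, edgeR adjusted p = 0.00292) in APP/PS1. For miR-451a it was -1.23 in WT and -2.13 (SE 0.34, edgeR adjusted p = 0.00084) in APP/PS1, where 5 of the 7 names of the erythrocyte list fell, miR-486a-5p and miR-486b-5p with identical counts among them.

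The difference between the changes in both genotypes was tested in the same fit. It passed for 7 names (1.62%), and in each the change in WT was the lower one, with 0 (0%) the other way. Leaving out a library changed this count to between 2, without WT 6-month replicate 1 or WT 9-month replicate 3, and 10, without APP/PS1 6-month replicate 3. miR-690 had 26.4, 28.2 and 13.4 CPM at 9 months and 678, 638 and 442 CPM at 6 months in WT, and 177, 62.5 and 90.99 CPM at 9 months and 176, 286 and 373 CPM at 6 months in APP/PS1. Its log2 fold change was -4.70 in WT and -1.34 in APP/PS1, a difference of -3.37 (SE 0.57, edgeR adjusted p = 0.00164). The predicted miRNA differed by -3.25 (SE 0.55, edgeR adjusted p = 0.00164). These were the only names whose difference passed in each of the 12 fits that left out 1 library.

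The other differences were less stable. They were -2.35 for miR-3470a (SE 0.48, edgeR adjusted p = 0.0107), -2.44 for miR-3470b (SE 0.58, edgeR adjusted p = 0.0311) and -2.65 for miR-1957a (SE 0.60, edgeR adjusted p = 0.0268). With 1 library left out miR-3470a passed in 8 of 12 fits, miR-3470b in 5 and miR-1957a in 4. The miR-142a arms, made in blood cells and microglia, differed in another way. miR-142a-3p had 10.3, 9.41 and 6.62 CPM at 9 months and 12.1, 15.6 and 10.7 CPM at 6 months in WT, and 16.8, 20.6 and 13.7 CPM at 9 months and 11.1, 8.83 and 9.81 CPM at 6 months in APP/PS1. It did not pass in WT (log2 fold change -0.55, SE 0.23, edgeR adjusted p = 0.255) and rose in APP/PS1 (0.77, SE 0.22, edgeR adjusted p = 0.0475), and the difference was -1.33 (SE 0.32, edgeR adjusted p = 0.0311). The difference of miR-142a-5p was -0.73 (SE 0.18, edgeR adjusted p = 0.0328), and either arm passed in 5 of the 12 fits. Each of these 5 names lost its call without WT 6-month replicate 1, without WT 9-month replicate 3 and without APP/PS1 9-month replicate 1. miR-3470a lost it also without WT 6-month replicate 3, and each of the other 4 without 4 or 5 further libraries.

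**Figure D5:**
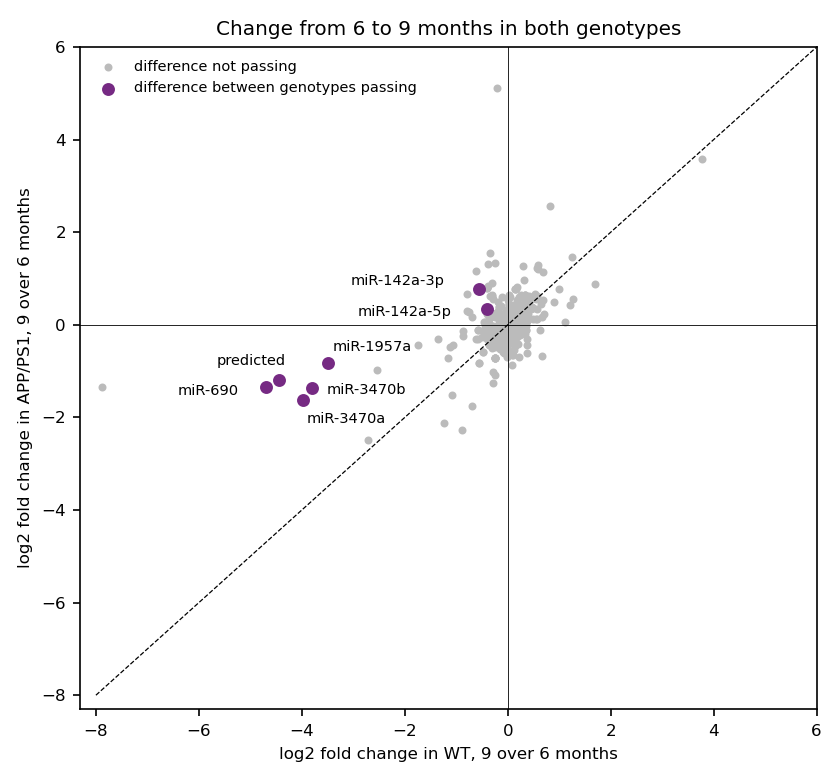
log2 fold change of 9 over 6 months in WT (x axis) and in APP/PS1 (y axis) for the 433 tested miRNAs, each point a miRNA, with the 7 whose difference between genotypes passed the test in colour and a dashed line where both changes are equal. All 7 lie above the line; miR-690 is at -4.70 in WT and -1.34 in APP/PS1.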

How the data were processed

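The authors deposited raw counts for each mature miRNA name, 1927 names by 24 libraries in 1 table whose columns were matched to samples by their descriptions. Per the submitters' processing notes, reads were trimmed with cutadapt 1.14 to between 17 and 35 bases and filtered at quality 20 with Trimmomatic 0.36, and BLAST 2.6.0, miRBase 21.0 and miRDeep2 2.0.0.8 were used to identify them. Per the labels' protocols, sequencing was on a HiSeq 2500. Of the counting tool, the treatment of reads with several matches and the genome build, none is given in the sources used here, so names whose letters recur elsewhere may have gained or lost counts at that step.

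Over the series, totals per library were 2230030 to 6829622 counts. edgeR's filter by expression (at least 10 counts at median depth, 15 in total) kept 433 names; 802 names had 0 counts throughout. The untested names held 0.0123% to 0.0154% of the counts of the 6 WT libraries compared. Among tested names, 15 sets (32 names) had identical counts and are not independent. No replicates were identical: the chi-square per degree of freedom between replicates of the WT 9-month and 6-month groups was between 36.5 and 173.

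Quasi-likelihood models were fitted in edgeR 4.0.16 under R 4.3.3 after TMM scaling, with all 8 groups in 1 model (16 residual and 4.64 prior degrees of freedom, common biological coefficient of variation 18.6%). The Benjamini and Hochberg adjustment covered the tested names of each comparison separately. A standard error is |log2 fold change| over the root of F. The model was first tested on simulated data. RefSeq sequences and positions on GRCm38.p6 matched 358 tested names, and genes are those of GENCODE vM21 on that assembly. The alternatives tried were other scalings, DESeq2 1.42.0, no filter, fewer libraries, a replicate block and leaving out each library.

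The comparison and the 19 miRNA lists were chosen with earlier results of these data known. Named miRNAs are those passing without overlap, at most the 15 of smallest p in each direction, up to 4 passing members of a list or else its member of smallest p, the 5 most abundant, the 5 with the smallest p in the difference between genotypes, and those whose log2 fold change in APP/PS1 from 3 to 6 months was above 2. Seed relatives, opposite arms, members close to the threshold and further list members were chosen after their values were seen.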

Additional observations from a re-analysis of the deposited data

Results flagged for a closer look

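In 7 miRNAs the change from 6 to 9 months differed between WT and APP/PS1 mice by a test of the difference itself (edgeR, adjusted over 433 names). The WT change minus the APP/PS1 change was -3.37 for miR-690, -3.25 for its predicted companion, -2.35 for miR-3470a, -2.65 for miR-1957a and -2.44 for miR-3470b. In these 5 the log2 fold change was below 0 in both genotypes, and further below in WT. In APP/PS1 the predicted miRNA and miR-1957a did not pass, and the libraries of both ages overlapped for miR-690, the predicted miRNA and miR-1957a. The WT 6-month libraries were also higher than the APP/PS1 6-month ones without overlap for miR-690, the predicted miRNA and miR-3470b. For miR-142a-3p the difference was -1.33 and for miR-142a-5p -0.73, with the log2 fold change below 0 in WT and above 0 in APP/PS1. Neither arm passed in WT, and in APP/PS1 only miR-142a-3p did. Groups held 3 mice, and most of these calls hung on single libraries. With each library left out in turn, miR-690 and the predicted miRNA kept their call in all 12 fits. miR-3470a kept it in 8, miR-3470b and both miR-142a arms in 5 and miR-1957a in 4.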

How the results depend on the processing

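The 14 miRNAs passing in WT became 32 without the filter on low counts (1125 names, 8 higher and 24 lower, 13 shared), where edgeR estimated an infinite prior degree of freedom and so used no name's own spread. Leaving out a library gave 13 to 15, and DESeq2 gave 20, including all 14. In APP/PS1 23 became 15 with DESeq2 size factors, 39 without the filter and 1 with only the libraries compared (14 to 27 when leaving out a library). The difference's 7 became 23 without the filter and 2 with only the libraries compared (2 to 10 when leaving out a library). With library totals alone the median of all names was 0.12 in APP/PS1 and -0.16 for the difference.

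Of the 14, 10 passed in all 6 fits that left out a library. miR-433-5p was also lost with library totals, without the filter, with only the libraries compared and with the replicate block. With only the libraries compared, miR-1969 and miR-6481 had too few counts to be tested. Both passed in the 5 other alternative fits that left out no single library. Those fits kept both names only with the other libraries of the series included, so they are no separate support. Replicate numbers did not pair the samples (correlations of same-numbered WT 9-month and 6-month deviations 0.02, 0.06 and -0.11 over 433 names), and the fit with the replicate block called 12 in WT, without miR-433-5p and miR-451a, 23 in APP/PS1 and 10 for the difference. Reversed log2 fold changes were all of names that did not pass. With library totals they were -0.0326 for miR-124-3p and -0.0204 for miR-9-5p, and with only the libraries compared -0.000917 for miR-124-3p. Over the fits that left out a library, values ranged from -0.0378 to 0.340 for miR-338-3p, -0.0230 to 0.274 for miR-7b-5p, -0.145 to 0.662 for miR-449a-5p, -0.0230 to 0.0907 for miR-124-3p, -0.168 to 0.0167 for miR-26a-5p, -0.0122 to 0.115 for miR-9-5p and -0.05001 to 0.0582 for miR-125b-5p. The causes were not tested. Medians ranged over settings from -0.71 to -0.40 for the erythrocyte list and from 0.07 to 0.18 for the Dlk1-Dio3 list. At 3 mice a group and totals down to 2230030 counts, names near 1 CPM rest on a few counts.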

Other observations

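In 3 miRNAs, chosen after their values were seen, the 3 libraries of APP/PS1 mice at 6 months were as far apart as the ages in WT. miR-342-3p had 5376, 1035 and 778 CPM in APP/PS1 6-month replicates 1, 2 and 3, against 794, 2888 and 783 CPM in the WT 6-month ones. miR-376c-3p had 45.5, 16.6 and 14.9 CPM there, against 12.99, 15.01 and 16.2 CPM in WT. miR-3072-3p had 47.5, 24.8 and 24.7 CPM, against 23.7, 24.4 and 30.8 CPM in WT. In each, APP/PS1 6-month replicate 1 lay at the level of the other ages and the other 2 lay near the WT 6-month libraries.

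Of the names too rare to be tested, some that passed between these ages without the filter on low counts are given here. Counts mainly at 1 age follow from that choice, and that fit used no name's own spread. Each name had counts in every library of the age where it was higher. miR-8111 had 8, 11 and 9 counts in WT 9-month libraries and 0, 0 and 2 in WT 6-month libraries. miR-706 had 2, 2 and 3 counts at 9 months and 11, 7 and 23 at 6 months, and miR-3473e had 0 counts in all 3 libraries at 9 months and 2, 8 and 7 at 6 months. For miR-183-5p, with 1, 7 and 2 counts at 9 months and 1, 3 and 27 at 6 months, and for miR-96-5p, with 2, 1 and 0 at 9 months and 1, 6 and 17 at 6 months, WT 6-month replicate 3 carried most of the counts. Without that library the 6-month counts of miR-183-5p lay within the range of the 9-month ones.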
